A study of Mus musculus with 24 samples.

Results

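X2 is the vector control among the derivatives of EO771, a mouse mammary carcinoma line, and its 8 libraries of the 24 in the series were chosen by their label alone, 4 from sequencing batch 1 and 4 from batch 2. The line came from a spontaneous tumour of C57BL/6 mice and was grown in RPMI-1640 medium with fetal bovine serum. X2 cells carried a retroviral pLNCX2 vector with the tdTomato reporter and were enriched by fluorescence-activated sorting without clonal selection. Cells with Ccr7 carried the same vector with mouse Ccr7 cDNA and were sorted by surface podoplanin (PDPN): the CCR7 libraries, whose columns are named PDPN minus, came from the PDPN-negative cells, and the CCR7-PDPN libraries from the PDPN-positive cells. X2-PDPN cells were sorted from X2 for high PDPN. Polyadenylated RNA was made into stranded libraries and read from a single end, and the authors counted reads on the Ensembl genes of GRCm38. X2 and CCR7-PDPN were sequenced in both batches, CCR7 in batch 1 only and X2-PDPN in batch 2 only. Replicates were technical, 4 to a derivative in each batch that held it, so every p-value below measures only the spread between these libraries. Total counts of the X2 libraries, in the order of their replicate numbers, were 28484857, 23875130, 31157077 and 29065329 in batch 1 and 26852598, 27926900, 30335344 and 29996275 in batch 2.

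Carcinomas arise from epithelium, whose cells are joined by E-cadherin and tight junctions and carry keratin filaments built from a type I and a type II keratin in pairs. During an epithelial to mesenchymal transition these features are given up, while vimentin and transcription factors of the Twist, Snail and Zeb families appear. Lines such as EO771 can be transplanted into immunocompetent mice of the same strain, so the immune ligands and interferon responses they carry in culture are part of what the host meets.

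Levels are given as TPM, read counts scaled to gene length and to the library, computed from the deposited counts and gene lengths over the 13915 genes listed in both count tables, as mean ± SD of the 4 libraries of batch 1 and then of batch 2. The batch 1 table held 55471 genes and the batch 2 table only 13915, so a gene is called not listed where batch 2 gives no value. Where all batch 1 libraries held 0 reads, the floor is the TPM that 3 counts over those 4 libraries would give. PCR reads without molecular identifiers are not independent molecules, so these floors cover counting error only. At least 1 TPM in each of the 8 X2 libraries was reached by 11588 genes, of which 10421 are protein-coding, 47.4% of the 21974 protein-coding genes in the batch 1 table. At least 10 TPM in each library was reached by 8633 genes, at least 100 TPM by 2029 and at least 1000 TPM by 108. The protein-coding genes carried 97.6% of the TPM in batch 1 and 97.2% in batch 2. Autosomes had between 38.8% and 56.7% of their protein-coding genes at 1 TPM or more, and chromosome X had 33.6%.

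The top of the X2 profile was occupied by the translation machinery. Eef1a1, the elongation factor that brings aminoacyl-tRNA to the ribosome, had the highest mean TPM, 9079 ± 165 in batch 1 and 9020 ± 31.4 in batch 2 (SD, n = 4). Eef2, which moves the ribosome along the message, followed among nuclear genes with 6785 ± 163 and 6702 ± 219 TPM. Of the 20 highest genes, the ribosomal proteins were Rps15, Rplp1, Rplp0, Rpl8, Rps3a1, Rps2, Rpl32, Rpl36 and Rpl4. Of 82 cytosolic ribosomal protein genes, 79 reached 1 TPM in all 8 libraries, and the median of the list was 1195 TPM in batch 1. The rest of the 20 highest genes were Actb of the cytoskeleton, the chaperone Hsp90ab1, the ferritin chains Fth1 and Ftl1, the nucleolar protein Npm1, the class I light chain B2m, the galectin Lgals1 and the mitochondrially encoded mt-Co1 and mt-Nd2. Actb had 5788 ± 154 and 6666 ± 440 TPM, with every batch 2 library above every batch 1 library. Rps15, Hsp90ab1 and Rpl4 were lower in every batch 2 library than in any batch 1 library. Actb, Rps15, Hsp90ab1 and Rpl4 were not among the genes past an adjusted p of 0.05 between the batches. Many ribosomal protein genes and Eef1a1 have processed copies, and 26.6% of the 75-base windows of the annotated Eef1a1 transcripts and 15.1% of those of Rps15 also occur in another annotated gene, so their levels are uncertain to that extent.

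Mitochondrial messages differed visibly between libraries. mt-Co1, a subunit of cytochrome c oxidase, had 5734, 7094, 8367 and 8206 TPM in replicates 1 to 4 of batch 1 and 5748, 6860, 8700 and 8062 TPM in batch 2. Replicate 1 was lowest and replicates 3 and 4 highest in both batches. mt-Nd2 of complex I had 2625, 3708, 3792 and 3698 TPM in batch 1 and 2600, 3471, 3916 and 3426 in batch 2, again lowest in replicate 1. Of 13 mitochondrially encoded messages, 7 reached 1 TPM in every library. mt-Co2, whose sequence has a near-identical nuclear copy on chromosome 1 (99.5% of its windows), had only 3, 1, 2 and 2 reads in batch 1 and was not listed in batch 2, so its level cannot be read from these counts. Copies on chromosome 1 also share 99.86% of the windows of mt-Co3, 99.51% of mt-Atp6, 97.81% of mt-Nd3 and 98.65% of mt-Nd4l. The count of 7, and the share of counts in mitochondrially encoded genes given below, are uncertain to that extent. Of the mt-Co1 windows, 39.84% are shared with other annotated genes, mostly with the copy Gm29216 on chromosome 1 (27.53%), and of the mt-Nd2 windows 5.705%, so the mt-Co1 level and its place among the 20 highest genes are uncertain to that extent.

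The marker genes Vim, Krt8, Twist1 and Wnt7b were all present at more than 100 TPM. Vim (ENSMUSG00000026728, chromosome 2, 13573927 to 13582826), the intermediate filament of mesenchymal cells, had 2021, 1986, 1902 and 2014 TPM in batch 1 and 2043, 1988, 1920 and 2005 in batch 2. Krt8 (ENSMUSG00000049382, chromosome 15, 101996698 to 102004482), the type II keratin of simple epithelia, had 445, 443, 448 and 434 TPM in batch 1 and 426, 415, 438 and 422 in batch 2. Both genes were nearly level across the libraries, and the batches overlapped. Other annotated genes, mostly the processed copy Krt8-ps, share 23.5% of the Krt8 windows. Twist1 (ENSMUSG00000035799, chromosome 12, 33957671 to 33959829), a transcription factor of mesenchymal transition, had 133, 117, 126 and 130 TPM in batch 1 and 124, 118, 116 and 130 in batch 2. Wnt7b (ENSMUSG00000022382, chromosome 15, 85535437 to 85582473), a secreted Wnt ligand, had 120, 112, 119 and 119 TPM in batch 1 and 118, 113, 113 and 120 in batch 2. Neither gene separated the batches. The locus AU022754 shares 2.86% of the Wnt7b windows.

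**Figure D1:**
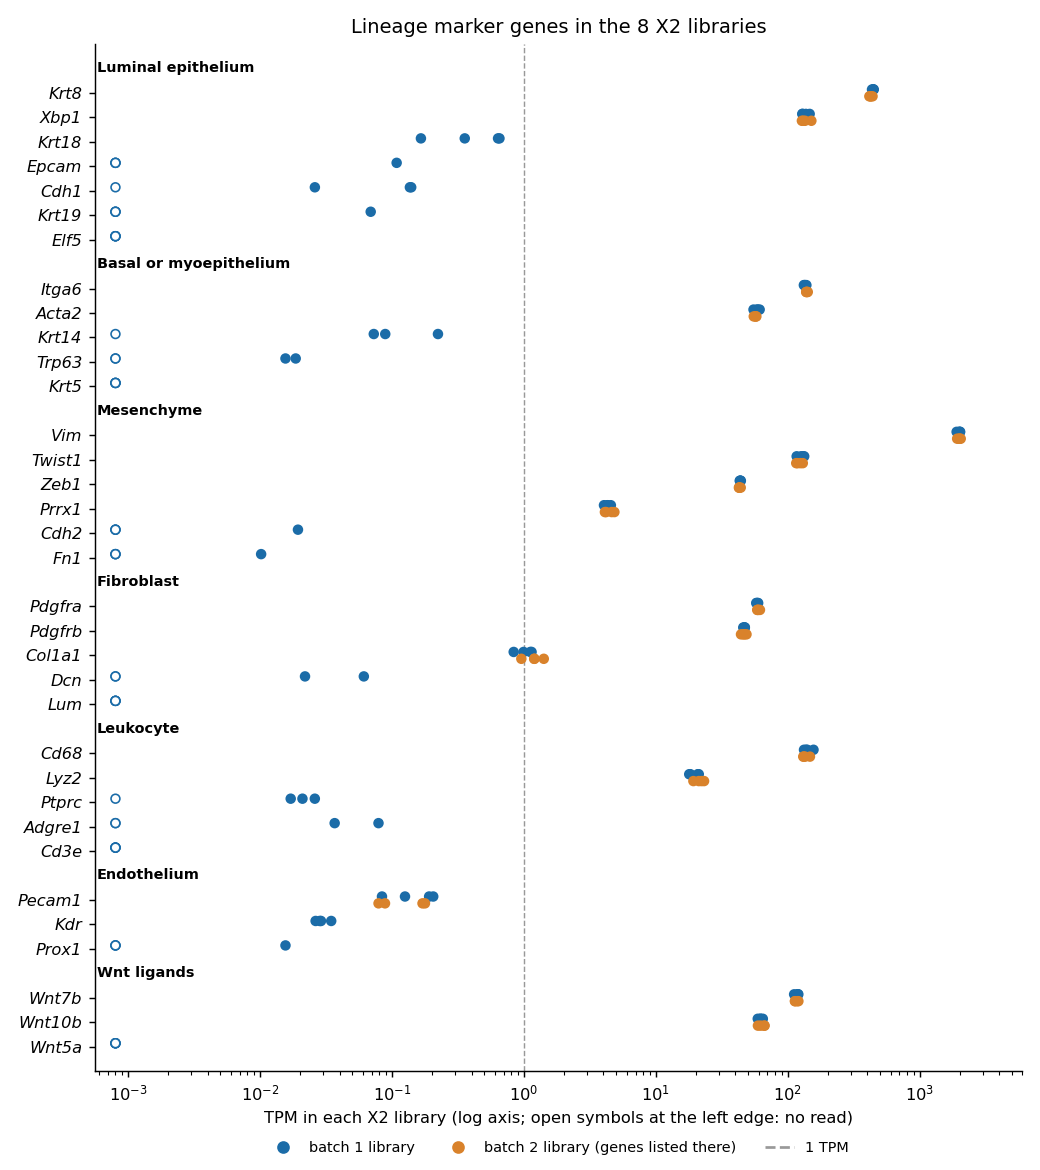
TPM of lineage marker genes in each of the 8 X2 libraries on a log axis, batch 1 in blue and batch 2 in orange, with open symbols at the left edge for libraries without a read and no batch 2 symbol for genes not listed there. Krt8, Xbp1, Vim and Twist1 lie above 100 TPM, while Epcam, Cdh1, Krt19, Cdh2 and Fn1 lie under 1 TPM or have no read.

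Apart from Krt8, the luminal epithelial program was nearly absent. Of 32 luminal markers, 6 reached 1 TPM in all 8 libraries. The highest after Krt8 were Xbp1, a regulator of secretory capacity that the unfolded protein response also uses, with 135 ± 8.20 and 136 ± 10.2 TPM, Elf3, an epithelial transcription factor, with 3.54 ± 0.736 TPM in batch 1, and Ocln of tight junctions. Epcam, an adhesion molecule of epithelia (chromosome 17, 87635979 to 87651129), had 0, 0, 2 and 0 reads in batch 1. Cdh1, which encodes E-cadherin (chromosome 8, 106603351 to 106670246), had 0, 4, 1 and 5 reads, a mean of 0.0755 ± 0.0730 TPM. Neither was listed in batch 2. Elf5, Cldn7, Prom1 and Ly6d had no read in batch 1, with floors of 0.0138 TPM for Prom1 to 0.133 TPM for Ly6d. Gata3, the luminal lineage factor, had 1, 1, 0 and 0 reads, and the splicing regulator Esrp1 had 2 reads over the 4 libraries. Bulk RNA cannot tell fewer cells of a type from less RNA per cell, so a trace level such as that of Cdh1 may belong to few cells or to all.

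The keratins were lopsided towards type II. Of 53 keratin genes, 37 had no read in the X2 libraries of batch 1, and only Krt8 and Krt80 reached 1 TPM in all 8 libraries. Krt80, a type II keratin, had 17.7 ± 0.562 and 17.2 ± 0.828 TPM. Krt18 (ENSMUSG00000023043, chromosome 15, 102028180 to 102032027), the type I keratin that pairs with Krt8 in simple epithelia, had 7, 6, 2 and 4 reads in batch 1, 0.452 ± 0.234 TPM, and was not listed in batch 2. None of its 75-base windows is shared with another annotated gene. Krt19, another simple type I keratin, had 1 read in 4 libraries. Summed over the 25 type II genes, a grouping chosen after the values were seen, keratins gave 463, 461, 467 and 454 TPM in batch 1 and 445, 432, 456 and 441 in batch 2. The 27 type I genes summed to 1.78 ± 0.513 TPM in batch 1, so every library of that batch held far more type II than type I keratin message. Most type I reads fell on Krt16, with 1.09 ± 0.305 and 1.28 ± 0.333 TPM, the only type I keratin listed in batch 2.

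Other junction families were also reduced to few members. Of 25 claudins, the strands of tight junctions, 2 reached 1 TPM in all libraries, Cldn12 with 38.8 ± 2.01 and 40.6 ± 2.17 TPM and Cldn9 with 1.78 ± 0.239 TPM in batch 1, and 12 had no read in batch 1. Of 23 classical and type II cadherins, Cdh13, which is anchored to the membrane by a lipid and has no cytoplasmic tail, had 39.4 ± 1.08 and 40.0 ± 0.730 TPM. Only Cdh24 also reached 1 TPM in every library. Cdh2, the N-cadherin of mesenchymal cells, had 0, 1, 0 and 0 reads in batch 1, so the messages of E-cadherin and N-cadherin were both at trace level.

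Basal markers divided in the same way. Of 23 basal and myoepithelial markers, 8 reached 1 TPM in all libraries, led by genes that mesenchymal cells use as well: the matrix protein Sparc (729 ± 5.30 and 715 ± 7.69 TPM), the caveolar protein Cav1 (251 ± 3.31 and 247 ± 7.44), the laminin receptor chain Itga6 (135 ± 2.51 and 139 ± 1.74) and Procr, the protein C receptor (122 ± 1.93 and 122 ± 2.27). The contractile actin Acta2 had 58.4 ± 2.60 and 56.7 ± 1.08 TPM. The defining keratins and the lineage factor were lacking: Krt5, Krt15 and Krt6a had no read in batch 1, Krt14 had 3, 1, 0 and 1 reads, and Trp63 had 1, 1, 0 and 0 reads.

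The caseins and the whey protein were without reads. Of 16 milk and lactation genes, 9 had no read in batch 1, among them the caseins Csn1s1, Csn1s2a, Csn1s2b, Csn2 and Csn3 and the whey protein Wap, with floors between 0.0143 TPM for Csn2 and 0.0982 TPM for Wap. The 4 that reached 1 TPM everywhere belong to the milk fat globule but are used outside the gland too: Mfge8, an opsonin of apoptotic cells, with 315 ± 2.31 and 307 ± 7.51 TPM, the xanthine oxidoreductase Xdh with 139 ± 3.02 and 139 ± 1.52, the lipid droplet protein Plin2 with 90.8 ± 2.53 and 90.7 ± 2.56, and Btn1a1 with 2.26 ± 0.294 and 2.22 ± 0.332.

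The mesenchymal genes ranged from very high to absent. Of 39 mesenchymal and EMT genes, 19 reached 1 TPM in every library, 48.7% against 47.4% of all protein-coding genes, so the list as a whole did not stand out at that limit. A mean of at least 100 TPM in batch 1 was reached by 8 of the 39, which include the markers Vim and Twist1. Of the 21974 protein-coding genes, 2002 had at least 100 TPM in every library, which is a smaller share but by a stricter rule. After Vim and Sparc stood Axl, a receptor tyrosine kinase, with 714, 704, 709 and 711 TPM in batch 1 and 713, 710, 716 and 712 in batch 2. This level was almost the same in the 8 libraries. Besides Twist1, the transcription factors Twist2 (49.0 ± 1.26 TPM) and Snai1 (48.9 ± 2.14) were present in batch 1, with 48.3 and 49.8 TPM in batch 2. Zeb1 had 43.6 TPM in batch 1 and 43.1 in batch 2, and Zeb2 had 22.8 and 21.3. Twist2, Snai1, Zeb1 and Zeb2 were chosen after their values were seen. Fn1 (ENSMUSG00000026193, chromosome 1, 71585520 to 71653200), which encodes fibronectin and is a defining mesenchymal marker, had 0, 0, 1 and 0 reads in batch 1. Lox, which crosslinks collagen, Thy1 and the ligand Wnt5a had no read, with floors of 0.0207, 0.0330 and 0.0126 TPM. Postn had 3 reads over the 4 libraries of batch 1 and Fap, a protease of activated fibroblasts, had 1.

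Of the fibroblast markers, the receptors were higher than the matrix genes. Pdgfra had 59.0, 57.6, 58.1 and 59.5 TPM in batch 1 and 58.6, 59.8, 61.4 and 59.0 in batch 2. Pdgfrb had 46.7 ± 0.592 and 46.4 ± 1.86 TPM. These were the only 2 of 11 fibroblast markers at 1 TPM or more in all libraries. Col1a1, a chain of type I collagen, stood near the limit with 0.835, 1.12, 1.14 and 0.992 TPM in batch 1 and 1.19, 1.41, 1.20 and 0.954 in batch 2, while its partner chain Col1a2 had 0, 2, 1 and 0 reads in batch 1. Decorin (Dcn) had 4 reads over the 4 libraries and lumican (Lum) had none, with a floor of 0.0404 TPM.

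The collagens of basement membrane stood high among the matrix genes. Of 44 collagen genes, 11 reached 1 TPM in all libraries, led by Col4a1 of basement membrane collagen (370 ± 4.57 and 366 ± 8.89 TPM), the microfibrillar Col6a1 (251 ± 4.94 and 245 ± 5.53), Col5a1 (195 ± 6.03 and 189 ± 4.75) and Col4a2 (174 ± 3.11 and 170 ± 4.02). Of 35 basement membrane and adhesion genes, 20 reached 1 TPM in all libraries, with the integrin chain Itgb1 highest at 1015 ± 12.3 and 1023 ± 19.5 TPM. Of the laminin chains, Lamc1 had 263 ± 12.8 and 264 ± 11.5 TPM. Lamb1 (ENSMUSG00000002900, chromosome 12, 31265234 to 31329644), the beta chain that Lamc1 most often joins, was chosen after its values were seen and had 0, 5, 1 and 3 reads in batch 1 and 2, 2, 3 and 0 in batch 2. The beta chain Lamb2, also chosen after its values were seen, had 40.7 ± 0.842 and 40.1 ± 1.17 TPM. None of the Lamb1 windows is shared with another annotated gene. Of 26 integrin genes, 13 reached 1 TPM in every library, and Itgb1, Itga5 (143 ± 1.63 and 144 ± 3.55), Itga6 and Itgb5 (97.9 ± 3.69 and 101 ± 2.80) were highest.

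The listed hormone receptors and the ErbB list differed in the share expressed. At 1 TPM in all libraries stood 33.3% of the former and 53.8% of the latter, against 47.4% of all protein-coding genes. Of 12 receptors for steroids, retinoic acid, vitamin D and the hormones prolactin and growth hormone, 4 reached 1 TPM in all libraries: the glucocorticoid receptor Nr3c1, the only steroid hormone receptor of the 4, with 61.0 ± 1.56 and 60.0 ± 1.41 TPM, the retinoic acid receptors Rarg (48.4 ± 0.797 and 47.7 ± 1.98) and Rara (38.0 ± 1.09 and 35.7 ± 1.06), and the vitamin D receptor Vdr (3.02 ± 0.233 and 3.05 ± 0.103). Pgr, Nr3c2 and Prlr, which encodes the prolactin receptor of the mammary gland, had no read in batch 1, with floors from 0.00645 TPM for Prlr to 0.0153 TPM for Nr3c2. Of 13 ErbB receptors and ligands, 7 reached 1 TPM in all libraries, and the highest were the ligands Ereg (36.0 ± 1.12 and 36.7 ± 1.50) and Hbegf (34.1 ± 0.206 and 33.3 ± 0.854), followed by the receptors Erbb2 (23.3 ± 0.858 and 23.7 ± 0.620) and Erbb3 (17.4 ± 0.742 and 18.1 ± 0.549). Egfr (ENSMUSG00000020122, chromosome 11, 16752203 to 16918158), which binds both of these ligands and was chosen after its values were seen, had 6, 9, 9 and 8 reads in batch 1, 0.0944 ± 0.0226 TPM, and was not listed in batch 2. Erbb4, the other receptor that binds them directly, had no read, with a floor of 0.00801 TPM.

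Growth genes were high. Myc (chromosome 15, 61985391 to 61990374), the transcription factor of growth and biosynthesis, had 1256, 1241, 1199 and 1331 TPM in batch 1 and 1178, 1203, 1154 and 1270 in batch 2. It led the 38 oncogenes and growth receptors, of which 32 reached 1 TPM everywhere, followed by Cdk4 (371 ± 7.70 and 373 ± 6.33), Ccnd1 (338 ± 3.57 and 338 ± 5.46) and Ccnd2 (314 ± 3.06 and 317 ± 5.43), the kinase and the cyclins that start the cell cycle. Mycn had no read in batch 1, with a floor of 0.0300 TPM. All 28 proliferation genes reached 1 TPM in every library, with a median of 158 TPM in batch 1, and Cdc20, an activator of the anaphase-promoting complex, was highest with 407, 396, 396 and 387 TPM in batch 1 and 393, 387, 403 and 387 in batch 2. Ube2c (322 ± 7.23 and 336 ± 6.31), Ccna2 (327 ± 7.15 and 324 ± 9.95) and Top2a (307 ± 6.96 and 298 ± 9.62) came next.

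Of 30 tumour suppressor genes, 28 reached 1 TPM in all libraries, the highest being Bax of the apoptotic pathway (237 ± 3.97 and 243 ± 4.17 TPM), Smad4 (162 ± 3.26 and 164 ± 2.52), the cell cycle inhibitor Cdkn1b (125 ± 3.86 and 124 ± 2.62) and Nf2 (117 ± 1.33 and 116 ± 1.02). The 2 without a read were neighbours. Cdkn2a (ENSMUSG00000044303, chromosome 4, 89274471 to 89294653), which encodes p16INK4a and p19ARF, and Cdkn2b (ENSMUSG00000073802, chromosome 4, 89306299 to 89311039), which encodes p15INK4b, had 0 reads in each X2 library of batch 1 and in all 12 libraries of that batch, with floors in X2 of 0.0844 and 0.0712 TPM. Mtap, an enzyme of methionine salvage on the side of lower coordinates (89137122 to 89181081), had 160 ± 4.41 TPM in batch 1 and 161 TPM in batch 2. Dmrta1, on the other side (89679436 to 89694772), also had 0 reads in the 12 libraries. RNA does not show whether the DNA of this interval is present, and none of the windows of Cdkn2a and Cdkn2b is shared with another annotated gene. Of 20 p53 target genes, 19 reached 1 TPM in all libraries, with Gdf15 (143 ± 2.81 and 143 ± 8.80), Sesn2 (84.8 ± 3.64 and 85.5 ± 3.98) and Phlda3 (74.9 ± 2.23 and 71.7 ± 1.79) after Bax.

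Interferon-stimulated genes were expressed without added interferon. Of 40 such genes, 35 reached 1 TPM in all 8 libraries, with a median of 12.3 TPM in batch 1. Bst2, which tethers virus particles to the cell surface (chromosome 8, 71534255 to 71537456), had 1068, 1011, 1006 and 1086 TPM in batch 1 and 1089, 1045, 1033 and 1094 in batch 2. Isg15, a ubiquitin-like modifier (chromosome 4, 156199455 to 156200796), had 151, 141, 141 and 148 TPM in batch 1 and 155, 133, 137 and 142 in batch 2. Ifi27 had 203 ± 6.00 and 209 ± 7.14 TPM and Ifi35 had 70.7 ± 2.53 and 69.4 ± 2.89. Mx1, chosen after its values were seen, had 0.699 ± 0.217 and 0.690 ± 0.123 TPM. Of the type I interferons, Ifnb1 had 4 reads over the 4 X2 libraries of batch 1 and the annotated Ifna genes had none. The genes of antigen presentation by MHC class I were also present: of 18, 15 reached 1 TPM everywhere, B2m with 3346 ± 17.2 and 3448 ± 108 TPM, the heavy chain H2-D1 with 1076 ± 15.7 and 1098 ± 27.6, and the chaperones Calr (831 ± 20.3 and 817 ± 13.0) and Canx (641 ± 23.5 and 627 ± 9.83). Heavy chain genes resemble each other in sequence, so their shares of reads are uncertain.

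Among the surface ligands that regulate lymphocytes, 8 of 17 reached 1 TPM in all libraries. Lgals9, which encodes galectin-9, had 325 ± 9.01 and 325 ± 8.07 TPM, Pvr had 153 ± 4.17 and 150 ± 1.43, Nectin2 had 93.6 ± 2.93 and 94.9 ± 3.35, and Vsir had 47.2 ± 0.606 and 48.3 ± 1.21. Cd274, which encodes PD-L1 and was chosen after its values were seen, had 4.65 ± 0.582 and 4.55 ± 0.332 TPM. Pdcd1lg2, Cd200, Ido1 and Cd86 had no read in batch 1, with floors between 0.0270 TPM for Cd86 and 0.0542 TPM for Ido1. Of 34 chemokines and cytokines, 15 reached 1 TPM, led by factors that attract or sustain macrophages: Ccl2, with 258, 266, 274 and 268 TPM in batch 1 and 253, 257, 262 and 256 in batch 2, and Csf1, with 96.8, 94.9, 93.6 and 97.8 TPM in batch 1 and 91.5, 89.9, 89.5 and 93.5 in batch 2. Every Csf1 value of batch 2 lay below every value of batch 1, but the gene was not among those past an adjusted p of 0.05. Tgfb1 had 77.0 ± 3.43 and 74.1 ± 4.27 TPM and Tgfb3 had 43.4 ± 1.00 and 42.5 ± 0.811. Cxcl12, its receptor gene Cxcr4, the CCR7 ligands Ccl19 and Ccl21a, Cxcl5 and Il1b had no read in batch 1. Ccl21a has near-identical copies, so its 0 is uncertain. Of 35 CC and CXC ligands, 5 reached 1 TPM in all libraries.

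Of 15 vessel growth factors and their receptors, 7 reached 1 TPM everywhere, with Vegfa (186 ± 6.98 and 181 ± 7.34 TPM), Vegfb (152 ± 9.07 and 157 ± 7.60), the co-receptor Nrp2 (147 ± 2.80 and 147 ± 1.89) and Pdgfa (101 ± 2.17 and 100 ± 1.52) highest. Angpt1 and Nrp1, the paralogue of Nrp2, had no read in batch 1, with floors of 0.0190 and 0.0101 TPM.

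Most genes of the metabolic and stress lists were expressed. Of 30 hypoxia and glycolysis genes, 29 reached 1 TPM, 96.7% against 47.4% of all protein-coding genes, with the glycolytic enzymes Gapdh (1946 ± 34.2 and 1936 ± 28.1 TPM), Ldha (1428 ± 36.0 and 1449 ± 38.8), Aldoa (1304 ± 19.3 and 1258 ± 28.9) and Pkm (1156 ± 11.2 and 1137 ± 18.8) highest. The exception was Epas1, which encodes HIF-2alpha, with 0, 0, 5 and 1 reads in batch 1, while Hif1a, chosen after its values were seen, had 307 ± 8.41 and 310 ± 8.41 TPM. All 25 cholesterol synthesis and uptake genes were expressed, among them the regulator Srebf2 (289 ± 7.10 and 290 ± 9.21), Insig1 (113 ± 4.02 and 117 ± 7.96) and Sqle (113 ± 4.40 and 114 ± 5.47).

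The ATF4 and unfolded protein response list had a median of 478 TPM in batch 1 over 24 genes that all passed 1 TPM in every library. Atf4, the transcription factor of amino acid and stress responses, had 1154, 1180, 1186 and 1187 TPM in batch 1 and 1136, 1148, 1159 and 1163 in batch 2, and its target Asns, asparagine synthetase, had 1133, 1131, 1104 and 1165 TPM in batch 1 and 1145, 1131, 1117 and 1172 in batch 2. Hsp90b1 (1188 ± 26.6 and 1154 ± 27.2) and the amino acid transporter Slc7a5 (943 ± 7.24 and 970 ± 10.9) stood beside them. Of 19 heat shock and oxidative stress genes, 17 reached 1 TPM, with Hspa8 (2091 ± 23.5 and 2082 ± 37.4), Hspd1 (1146 ± 14.2 and 1129 ± 16.5), Hsp90aa1 (1010 ± 5.99 and 989 ± 38.1) and the metallothionein Mt2 (672 ± 19.3 and 673 ± 26.3) on top. The small heat shock protein gene Hspb1 had 0, 0, 0 and 1 reads, and 46.4% of its windows are shared with the copy Hsp25-ps1, so this low count is uncertain. Of 24 serum-responsive and immediate early genes, 22 reached 1 TPM, with Ier3 (606 ± 22.2 and 645 ± 33.9), Fosl1 (263 ± 5.16 and 250 ± 6.55) and Klf6 (187 ± 5.63 and 190 ± 3.16) after Myc.

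Most markers of other cell types stayed under 1 TPM, with single exceptions. Of 20 leukocyte markers, 4 reached 1 TPM in all libraries, Cd68, a lysosomal glycoprotein that many cell types make (142 ± 10.3 and 136 ± 7.40 TPM), Lyz2 (19.5 ± 1.67 and 21.4 ± 1.68), S100a8 (6.97 ± 0.794 and 6.65 ± 2.16) and Cd74 (3.13 ± 1.06 and 2.27 ± 0.232). The pan-leukocyte gene Ptprc had 0, 2, 4 and 3 reads in batch 1, and Cd3e, Cd8a, Ms4a1, Itgam, H2-Ab1 and S100a9 had none. Of 12 endothelial and lymphatic markers 0 reached 1 TPM in all libraries, and their summed level was 1.15 TPM in batch 2. Of 7 adipocyte markers only Fabp4 did (4.17 ± 0.447 and 3.65 ± 0.375), of 6 erythroid genes 0 did, and Tubb3 of the neural list had 74.8 ± 1.68 and 72.2 ± 2.82 TPM. Des and Acta1 reached 1 TPM in all libraries among 8 skeletal muscle genes, as did Tex101 among 10 pluripotency and germ cell genes, and Afp among 9 hepatocyte and gut genes. Of the sex-linked genes, Xist had 5, 1, 4 and 4 reads in batch 1, and the Y-linked Ddx3y, Kdm5d, Eif2s3y and Uty had none.

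Transcription factors of position and lineage were expressed in part. Of 39 HOX genes, which record position along the body axis, 14 reached 1 TPM in all libraries, 35.9% against 47.4% of all protein-coding genes, and the highest were Hoxd8 (151 ± 9.63 and 163 ± 1.46 TPM), Hoxd10 (136 ± 4.24 and 137 ± 1.59), Hoxd9 (136 ± 6.61 and 136 ± 10.1) and Hoxc10 (86.4 ± 1.70 and 85.0 ± 3.97), while 10 had no read in batch 1. Of 51 lineage transcription factors, 32 reached 1 TPM, with the chromatin protein Hmga1 (717 ± 12.0 and 701 ± 18.0), Cebpb, Etv4 (202 ± 2.14 and 201 ± 4.52) and Id1 (175 ± 5.32 and 182 ± 5.34) highest. Cebpb, a factor of mammary and myeloid differentiation, was uneven, with 711, 459, 455 and 469 TPM in batch 1 and 697, 718, 565 and 697 in batch 2, and the batches overlapped through replicate 1 of batch 1. Of 19 Wnt ligands, 4 reached 1 TPM in every library, Wnt7b, Wnt10b (61.9 ± 2.23 and 63.6 ± 3.45), Wnt9a (5.27 ± 0.266 and 5.51 ± 0.179) and Wnt5b (1.96 ± 0.267 and 2.20 ± 0.298).

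How far the batches matched was first described gene by gene. The 11588 genes at 1 TPM or more in all 8 libraries made up 98.7% of the 11741 genes at that level in every batch 1 library and 98.6% of the 11758 in every batch 2 library. Across the 11588 genes, which are not independent replicates, log2 mean TPM of the batches correlated at 0.998. The median absolute log2 ratio between the batches was 0.0375, 90.6% of the genes lay within 1.1 times and 99.8% within 2 times, leaving 18 beyond. The median absolute log2 ratio was 0.0814 for the 2719 genes between 1 and 10 TPM, 0.0330 for the 6719 genes between 10 and 100 TPM, 0.0276 for the 2037 genes between 100 and 1000 TPM and 0.0345 for the 113 genes from 1000 TPM up, so the batches differed most under 10 TPM. Pairs of single libraries had a median absolute log2 difference of 0.0580 to 0.0693 within batch 1, 0.0650 to 0.0790 within batch 2 and 0.0645 to 0.0825 between the batches, so the ranges overlapped. The highest 100 genes of each batch had 97 in common.

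None of 5 measures of whole libraries separated the batches with all 8 libraries. The share of counts in the 10 highest genes was 4.05% ± 0.0679 in batch 1 and 4.09% ± 0.0759 in batch 2 (n = 4 each, two-sided exact permutation test, p = 0.457, where the smallest possible p is 0.0286). Replicates 1 to 4 had 4.0104%, 4.0049%, 4.0348% and 4.1499% in batch 1 and 4.064%, 4.0585%, 4.0398% and 4.2045% in batch 2. Each batch 2 library was thus above the same-numbered library of batch 1, and the test did not use these pairs. Without replicate 4 of batch 1 the batches did not overlap in this share (difference 0.0750 percentage points, exact p = 0.0571, the smallest possible there), and without replicate 4 of batch 2 the difference was 0.0041, against 0.0417 with all libraries. The share in mitochondrially encoded genes was 0.557% ± 0.0854 and 0.550% ± 0.0877 (exact p = 0.857), and in ribosomal protein genes 5.67% ± 0.0616 and 5.62% ± 0.120 (exact p = 0.629). Histone genes took 0.0301% ± 0.000625 and 0.0297% ± 0.000677 (exact p = 0.429), and 12136 ± 26.7 and 12130 ± 20.6 genes had at least 1 TPM in a library (exact p = 0.83). A p above the threshold does not show that the values are equal.

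The difference between the batches was then tested in X2 across 12872 genes with edgeR's quasi-likelihood test, without a term for the replicate number. By an adjusted p below 0.05 together with a fold change beyond 2 times, 5 genes were higher and 2 lower in batch 2, 0.0544% of the genes tested, and 63 (0.489%) passed the adjusted p alone. With the replicate number as a block, 6 were higher and 7 lower, and 391 passed the adjusted p alone. Chosen after their values were seen, those 63 held 2 ribosomal protein genes that rose and 6 that fell, of 79 tested. Of the 2 that rose, Rpl30 had overlapping groups and did not pass with the replicate block (adjusted p = 0.319, edgeR). The 63 also held Cd47, which rose by only 0.16 on the log2 scale, and the chaperone Hspe1, which fell by 0.104. None of the list members, the markers included, was among the 7 genes past both thresholds without the block. DESeq2 called 2 higher and 0 lower, with 6489 genes left without an adjusted p. Lars2 (ENSMUSG00000035202, chromosome 9, 123366927 to 123462666), the mitochondrial leucyl-tRNA synthetase, had 53.5, 65.0, 53.8 and 54.0 CPM (counts scaled to the library) in batch 1 and 115, 129, 111 and 117 in batch 2. The groups were far apart, and the log2 fold change was 1.07 (SE 0.07, adjusted p = 0.0012, edgeR). Gm15564, annotated as antisense RNA, had 1.44, 2.01, 1.83 and 2.13 CPM and then 6.59, 5.73, 4.52 and 5.33 (log2 fold change 1.57, SE 0.14, adjusted p = 8.3e-08, edgeR). The small RNA genes Gm23935 and Mir6236 rose by 1.36 and 1.19 on the log2 scale, Gm23935 from 24.5 ± 3.26 to 62.7 ± 11.1 CPM and Mir6236 from 5.49 ± 0.933 to 12.5 ± 1.92. When single libraries were omitted, Gm23935 passed in only 1 of 8 fits, and Lars2, Gm15564 and Mir6236 passed in all 8.

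The remaining 3 called genes averaged under 1 in log2 CPM and were named after their values were seen. Gm24270 rose by 2.28 on the log2 scale, and 1810049J17Rik and Gm44364 fell by 1.14 and 1.20, each of these falls being called in 1 of 8 fits with a library omitted. The count of lower genes was 0 without replicate 2 or 3 of batch 1, or replicate 2 or 3 of batch 2, and 1 without replicate 1 or 4 of batch 1 or replicate 1 of batch 2, and the count of higher genes was 9 without replicate 2 of batch 1 and 9 without replicate 3 of batch 2. Also chosen after values were seen were Gm26917, a long RNA that rose by 0.51, mt-Nd6 with 3.19 and 9.23 CPM (adjusted p = 0.245, edgeR) and the ribosomal RNA gene n-R5-8s1 with 0.298 and 2.74 CPM (adjusted p = 0.0887, edgeR), the last 2 past the fold change but not the adjusted p. The long RNA Gm42418 rose from 894 to 1779 CPM (log2 fold change 0.992, adjusted p = 0.0067, edgeR). Rn7sk rose from 1.33 to 2.67 CPM (adjusted p = 0.00076, edgeR). Both were chosen after values were seen and did not exceed the fold threshold. They were called in 3 and 4 of 8 fits with a library omitted. The TPM share of genes annotated as ribosomal RNA was 0.00112% in batch 1 and 0.00717% in batch 2, and that of genes annotated as miRNA 0.258% and 0.549%. What part the carry-over of such RNA had in the calls was not tested.

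**Figure D2:**
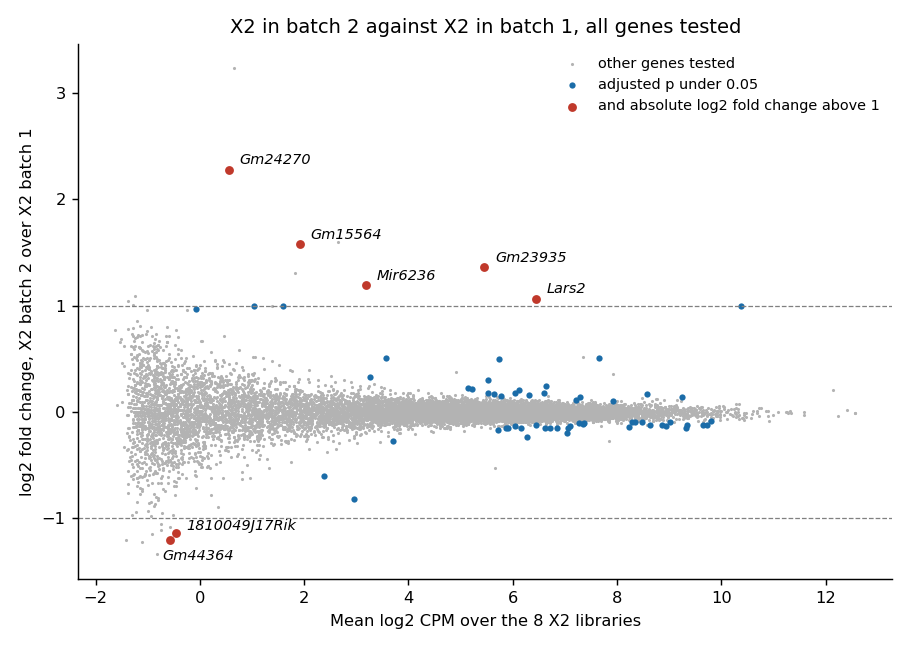
Log2 fold change of X2 in batch 2 over X2 in batch 1 against mean log2 CPM for the 12872 genes tested, with 1 point per gene. The 7 labelled genes in red passed both thresholds, and the genes in blue passed only the adjusted p.

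CCR7-PDPN, the other derivative sequenced in both batches, shares no library with this comparison. There 10 genes were higher and 9 lower in batch 2 by the same test, 0.148% of 12814, and 78 (0.609%) passed the adjusted p alone. The counts were 6 higher and 4 lower without replicate 4 of batch 2, and 5 were lower without replicate 3 of batch 2. Of the 7 genes called in X2, 4 were called in the same direction in CCR7-PDPN (57.1% of the X2 calls and 21.1% of the 19), Gm15564, Gm23935, Gm24270 and Mir6236. Lars2 changed by 0.97 there, just under the fold threshold. Across the 10553 genes whose mean log2 CPM reached 1, which are not independent replicates, the batch differences of the 2 derivatives correlated at 0.470, as a description. Whether the batch difference of X2 itself differed from that of CCR7-PDPN was tested as an interaction over 13400 genes: 0 genes (0%) passed with edgeR and 0 with DESeq2, while 353 and 239 had an unadjusted p under 0.05.

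X2 was set against the mean of the other derivatives of its own batch. A call against this mean does not require X2 to lie beyond each of the derivatives. CCR7 differs from X2 in Ccr7 and in sorting against PDPN, CCR7-PDPN in Ccr7 and in sorting for PDPN, and X2-PDPN in sorting for PDPN, and these cannot be told apart in this contrast. In batch 1, 541 of 13261 genes were higher in X2 (4.08%) and 458 lower (3.45%), and 7767 (58.6%) passed the adjusted p alone. In batch 2, 405 of 13314 were higher (3.04%) and 313 lower (2.35%), and 8309 (62.4%) passed the adjusted p alone. The contrasts have no library in common. Of the 13030 genes tested in both, 465 were called in the same direction, 297 higher and 168 lower, which is 49.5% of the 940 calls of batch 1 and 70.6% of the 659 of batch 2. Inpp4b and Pcyt1b were called in opposite directions.

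Interferon-stimulated genes were higher in X2. Of 39 tested, 25 were higher in batch 1 and 30 in batch 2, 25 of them in both, where 4.08% and 3.04% of all genes tested were higher, with median log2 fold changes of 1.46 and 1.47. The summed level of the list was 2016 ± 72.8 and 2039 ± 75.5 TPM in X2, 1369 ± 70.2 in CCR7, 857 ± 60.4 and 883 ± 32.2 in CCR7-PDPN of batch 1 and 2, and 840 ± 35.6 in X2-PDPN, so X2 was highest in each batch. Some leukocyte and adipocyte markers were higher in X2 as well. Of the leukocyte markers, 3 of 5 tested were higher and 1 lower in batch 1 and 4 of 6 higher and 1 lower in batch 2, with Cd68, Lyz2 and S100a8 higher and Cd79a lower in both. These calls are against the mean of the derivatives: in batch 2, X2-PDPN had more S100a8 (13.3 TPM) than X2 (6.65) and CCR7-PDPN less (0.540), and Lyz2 was nearly as high in X2-PDPN (18.8) as in X2 (21.4), against 1.60 in CCR7-PDPN. The 6 listed markers, of which Cd68 was the most abundant in each group, summed to 173 ± 12.0 and 168.5 ± 4.02 TPM in X2, 67.0 ± 7.79 in CCR7, 42.04 ± 2.70 and 38.0 ± 3.56 in CCR7-PDPN and 104 ± 7.40 in X2-PDPN. In X2 of batch 1, Cd3e, Cd8a, Ms4a1 and Itgam had no read and Ptprc had the few reads given above. Cd79a had 1.27 ± 0.334 TPM there and 1.47 ± 0.292 in X2 of batch 2. Fabp4, the 1 adipocyte marker tested, was higher in both batches, with 4.17 and 3.65 TPM in X2, 0.815 in CCR7, 0.348 and 0.359 in CCR7-PDPN and 2.55 in X2-PDPN. What part these markers had in the interferon difference was not tested. Class I genes had 2 of 15 higher in batch 1 and 5 in batch 2, with sums of 7027 ± 57.7 and 7125 ± 141 TPM in X2 against 4457 to 5669 TPM in the other groups. The 2 of batch 1, Psmb8 and Psmb9, were also called in batch 2 and are counted in the interferon list as well. Of 25 cholesterol genes, only 1 was lower in batch 1, a share near the 3.45% of all genes tested, and 6 were lower in batch 2, where 2.35% of all genes were. The list had median log2 fold changes of -0.60 and -0.89 and a sum of 1904 ± 58.8 and 1909 ± 73.0 TPM in X2 against 2291 to 3440 TPM in the others. Collagens had 2 higher and 6 lower of 22 in batch 1 and 2 higher and 4 lower in batch 2.

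Among the genes called in the same direction in both batches, 88 higher and 56 lower genes reached a mean log2 CPM of 1 and had groups that did not overlap. Of the 10 higher genes with the largest of the smaller fold changes, Rtp4, Ifi44, Usp18 and Oasl2 belong to the interferon list, which gave 25 of the 297 genes higher in both batches. Slfn2 was also among the 10. Usp18, which removes Isg15 from proteins, had 22.9 ± 2.58 and 22.5 ± 2.54 TPM in X2, against group means of 7.19 in CCR7, 1.44 and 1.48 in CCR7-PDPN and 2.50 in X2-PDPN. Its log2 fold changes were 2.80 (SE 0.16, adjusted p = 1.1e-08, edgeR) and 3.54 (SE 0.10, adjusted p = 1.9e-25, edgeR). Rtp4, a chaperone of receptors, had 22.4, 21.4, 20.2 and 25.8 TPM in X2 of batch 1 and 23.3, 22.0, 18.7 and 23.6 in batch 2, against 0.849 to 5.66 TPM in the other groups, with log2 fold changes of 3.11 and 3.97. Pmaip1, which encodes the apoptosis activator NOXA (chromosome 18, 66458533 to 66465565), had 8.50, 7.77, 8.61 and 9.91 TPM and then 8.36, 8.96, 8.95 and 9.21, against 2.78 in CCR7, 0.155 and 0.288 in CCR7-PDPN and 2.93 in X2-PDPN.

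Rnf43, Stard8 and Bmp7, also of the 10, were low in cells with Ccr7 and nearer to X2 in X2-PDPN. Rnf43 (chromosome 11, 87662722 to 87735539), a ubiquitin ligase that removes Wnt receptors from the cell surface, had 14.7, 14.7, 14.3 and 16.1 TPM in batch 1 and 14.4, 14.2, 14.7 and 16.2 in batch 2, and 9.79 ± 0.503 TPM in X2-PDPN. In CCR7 it had 6, 5, 6 and 4 reads and in CCR7-PDPN of batch 1 only 1, 3, 2 and 2 reads, so no fold change is given for that batch. Stard8 had 10.2 and 9.52 TPM in X2, 8.41 in X2-PDPN and 0.135 to 0.419 in the groups with Ccr7. Bmp7, a secreted factor of the TGF-beta family, had 7.93 and 8.34 TPM in X2, 5.96 in X2-PDPN and 0.191 to 0.302 in the groups with Ccr7. Fam107b was low in every other group, with 14.9 and 15.0 TPM in X2, 3.80 in CCR7, 1.09 and 0.949 in CCR7-PDPN and 3.41 in X2-PDPN.

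The 10 lower genes began with Pdpn, the marker used to sort the PDPN derivatives, which is therefore a check of the labels and no finding. Col6a3, a chain of microfibrillar collagen, had 0.534, 0.561, 0.685 and 0.598 TPM in X2 of batch 1 and 0.690, 0.675, 0.524 and 0.575 in batch 2, against 4.86 in CCR7, 4.23 in X2-PDPN and 41.0 and 42.9 in CCR7-PDPN. Col3a1, a fibrillar collagen, had 1.91 ± 0.161 and 1.84 ± 0.135 TPM in X2 against 7.54 to 10.8 in the other groups, with log2 fold changes of -2.17 (SE 0.07) and -2.50 (SE 0.06). Eya2, a transcriptional coactivator, had 3.05 and 2.90 TPM in X2 against 18.2 to 25.2 in the other groups, and Mylk, the myosin light chain kinase, had 1.21 TPM in X2 of batch 2 against 3.87 to 15.2 in the other groups. Nlrp4f, Trib2, Slc16a4, Tmem176b and 5033406O09Rik completed the 10, with log2 fold changes between -3.31 for Slc16a4 and -2.14 for 5033406O09Rik in batch 1. Each of these 20 genes kept its call under every alternative tried for these contrasts.

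**Figure D3:**
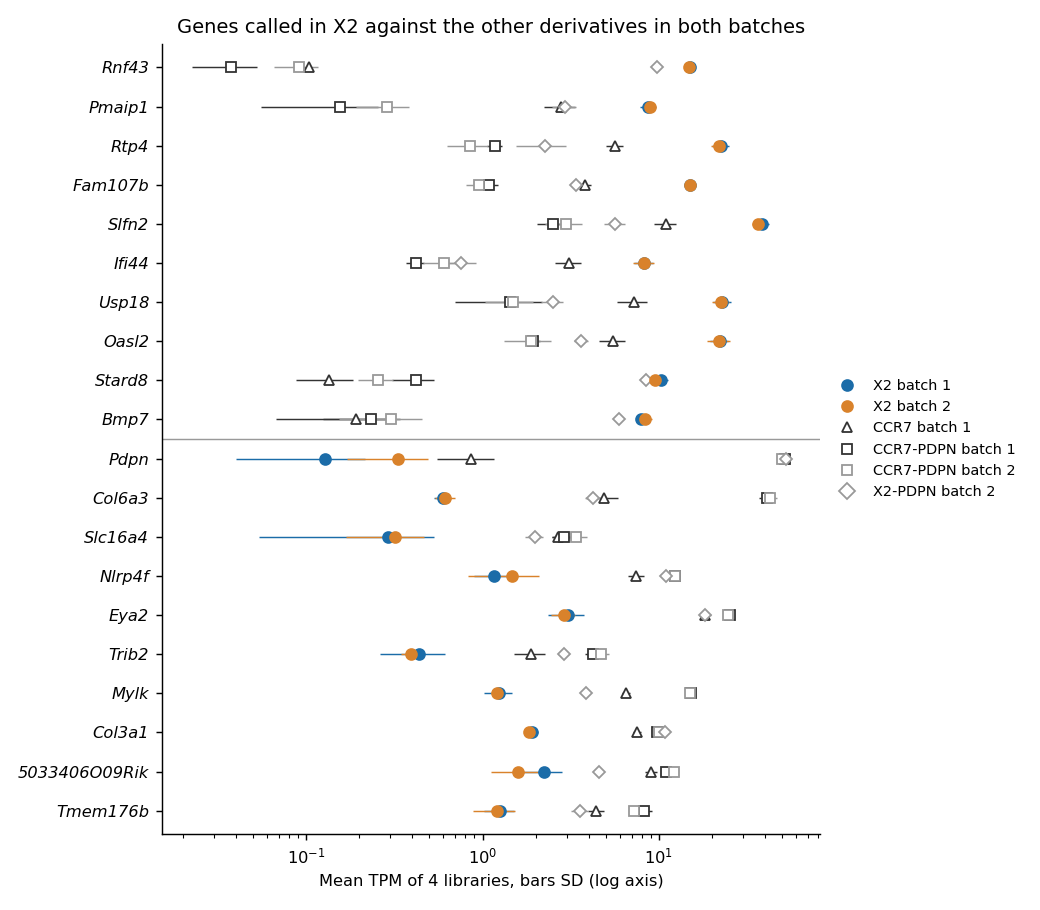
Mean TPM (bars SD, n = 4 libraries, log axis) in the 6 groups of the 10 genes higher and 10 lower in X2 than in the mean of the other derivatives in both batches. The filled X2 symbols of the batches lie close together, and for Rnf43, Stard8 and Bmp7 the X2-PDPN symbol lies near them.

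Since interferon-stimulated genes moved together, the sequence before their starts is shown for 3 of them with matches, chosen after their values were seen. RefSeq promoter windows of 300 bases (GRCm38.p6), from 250 before to 50 after a start, were searched on both strands for GAAA, any 2 bases and GAAA again, the core of the element bound by interferon-activated factors, in which matches may overlap. The motif lay in 3.44% of the 32851 windows of the table, and in 3.99% of its 27025 genes at 1 start or more, against 17 (56.7%) of the 30 list members, out of 40, that had a window. The other 13 had no match, among them Ifi44 and Oasl2, named above, and Ifit2, Irf7, Irf9 and Xaf1, so the windows shown are not typical of the list. A match describes these letters only. The windows of Isg15, with 3 matches, and of Ifit3 and Ifit1, with 2 each, follow 5′ to 3′ on the strand of the gene, with matches in capitals, at chr4:156200769-156201068 on the minus strand, chr19:34583279-34583578 and chr19:34640639-34640938 on the plus strand.
Isg15: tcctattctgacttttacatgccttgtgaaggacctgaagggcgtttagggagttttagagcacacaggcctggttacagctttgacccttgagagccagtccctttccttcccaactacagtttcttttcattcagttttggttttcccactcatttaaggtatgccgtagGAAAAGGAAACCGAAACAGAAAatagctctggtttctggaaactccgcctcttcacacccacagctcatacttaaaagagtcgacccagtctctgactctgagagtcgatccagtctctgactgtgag
Ifit3: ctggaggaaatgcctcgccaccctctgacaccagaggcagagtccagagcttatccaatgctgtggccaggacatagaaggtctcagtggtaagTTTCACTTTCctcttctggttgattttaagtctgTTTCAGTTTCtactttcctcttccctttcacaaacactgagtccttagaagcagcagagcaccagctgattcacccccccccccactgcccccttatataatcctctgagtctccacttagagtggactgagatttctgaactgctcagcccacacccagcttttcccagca
Ifit1: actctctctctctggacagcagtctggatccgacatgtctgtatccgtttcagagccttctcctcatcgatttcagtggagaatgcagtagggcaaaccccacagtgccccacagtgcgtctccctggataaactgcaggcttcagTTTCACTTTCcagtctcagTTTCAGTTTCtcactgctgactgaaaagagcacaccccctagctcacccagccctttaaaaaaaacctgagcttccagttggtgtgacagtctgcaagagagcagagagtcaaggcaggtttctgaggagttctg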

How the data were processed

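Both deposited tables hold the authors' whole-number read counts for Ensembl genes of GRCm38, not normalised and with replicates kept apart, and the deposited exonic length of each gene. The aligner, the counter's version, its strand setting and the filter behind the shorter batch 2 table are not given in the sources used here. TPM was computed from these counts and lengths over the 13915 genes of both tables. Tests used edgeR 4.0.16 in R 4.3.3 with TMM factors, filterByExpr and robust quasi-likelihood fits, with Benjamini-Hochberg adjustment over all genes tested, and were tested on simulated data. DESeq2 1.42.0, other factors, filters, thresholds and lengths, a replicate block and the omission of single libraries were the alternatives. Levels were computed in Python 3.11.15 with pandas 2.3.3 and numpy 2.4.6, exact permutation tests with scipy 1.17.1, and figures with matplotlib 3.10.9. The genes named were the markers, the 20 highest genes, the 4 highest and up to 6 missing members of each list, the called list members, and the 10 largest rises and falls among called genes whose groups did not overlap and whose mean log2 CPM reached 1. Members and lists were chosen with earlier results of these data known. Shared sequence was searched in windows of 75 bases of annotated transcripts. Some genes are not reported here.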

Additional observations from a re-analysis of the deposited data

Results flagged for a closer look

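In 11 of 72 groups of 4 X2 libraries, the highest or lowest library lay farther from its nearest neighbour, relative to the whole range, than Dixon's 95% critical value allows. The groups came from 36 chosen quantities, so uneven genes outside these, such as Cebpb, are not among the 11. Chance alone marks about 1 in 20 groups, and groups that share libraries are not independent. In batch 2, replicate 4 had the highest share of counts in the 10 highest genes (4.20%, the next 4.06%), replicate 3 the lowest share in ribosomal protein genes (5.45%, the next 5.66%) and replicate 1 the lowest share in histone genes (0.0287%, the next 0.0300%). Replicate 3 of batch 2 also had the lowest Rplp1 (5065 TPM, the next 5471), and replicate 2 the highest Gm24270 (186 TPM, the next 142). In batch 1, replicate 1 had the highest Fth1 (5937 TPM, the next 5785) and the lowest mt-Nd2 (2625 TPM, the next 3698). Replicate 2 had the lowest Rps3a1 (5030.4 TPM, the next 5239), the lowest Wnt7b (112 TPM, the next 119) and the highest Lars2 (21.8 TPM, the next 18.1), and replicate 3 had the lowest Eef1a1 (8833 TPM, the next 9128). The causes were not tested.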

How the results depend on the processing

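The count of genes at 1 TPM or more in all X2 libraries was 11588 and became 12369 at a limit of 0.5 TPM and 9745 at 5 TPM. For X2 in batch 2 against batch 1, with 5 higher and 2 lower genes, DESeq2 gave 2 and 0, no fold threshold gave 29 and 34, and a fold of 1.5 times gave 9 and 4. A minimum of 50 counts in every library of a group gave 0 lower genes among 10556, and a fit over all 24 libraries gave 0 lower. With single libraries omitted, the counts ran from 4 to 9 higher and from 0 to 2 lower. The edgeR fit had 1273 genes at an unadjusted p under 0.05 and DESeq2 862, and DESeq2 left 5 of the 7 called genes without an adjusted p. The cause was not tested.

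For CCR7-PDPN between the batches, omitting single libraries gave 6 to 10 higher and 4 to 10 lower genes. The interaction gave 0 calls in edgeR with all libraries (353 genes at an unadjusted p under 0.05) and under each of its alternatives (328 to 405), and 0 in DESeq2 (239), which was run with all libraries only. X2 against the other derivatives kept its counts within 1.5 times under every alternative. Of the 20 genes named there, all 280 recomputed fold changes kept their call. In these contrasts and in the interaction, single libraries were omitted from X2 only. Omission of libraries of the other derivatives was not tried there. With exonic lengths of the reference annotation in place of the deposited ones, the level of Isg15 in batch 1 moved by more than 1 SD (146 to 135 TPM), as the only named level.

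Of 5 library measures, the difference of batch 2 minus batch 1 changed sign in 3 with 1 library omitted, while the share of the 10 highest genes stayed positive (0.0417 percentage points with all libraries, 0.0041 without replicate 4 of batch 2 to 0.0750 without replicate 4 of batch 1) and the histone share negative (-0.00043325, from -0.00061575 without replicate 3 of batch 1 to -9.5833e-05 without replicate 1 of batch 2) in all 8 omissions. The mitochondrial share (-0.00649 percentage points with all libraries) was 0.0173 without replicate 3 of batch 1, 0.00879 without replicate 4 of batch 1 and 0.0319 without replicate 1 of batch 2, within a range of -0.0468 to 0.0319. The ribosomal protein share (-0.0466) was 0.0128 without replicate 3 of batch 2, within -0.0747 to 0.0128. The number of genes at 1 TPM (-5.75) was 3.50 without replicate 2 of batch 1 and 4.08 without replicate 1 of batch 2, within -17.5 to 4.08.

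The labels do not say what a replicate number marks, and the batches were compared without pairing, since not every same-numbered pair of libraries deviated together at a correlation over 0.1. Deviations of same-numbered X2 libraries from their batch means correlated at 0.0279, 0.0229, -0.00289 and 0.0564 over 13690 genes, and at 0.272, 0.202, 0.0774 and 0.367 over the 9824 genes with at least 100 counts in each library. Over the latter, replicate 3 of batch 2 correlated best with replicate 2 of batch 1 (0.108), as a hint from the data and not the design. For CCR7-PDPN the same-numbered values over the 9692 such genes were 0.0966, 0.297, 0.411 and 0.246, so most same-numbered libraries deviated together and a link between them is not excluded. With the replicate number as a block, 6 genes were higher and 7 lower in X2 of batch 2. By the adjusted p alone 391 passed, against 5, 2 and 63 without the block. In CCR7-PDPN 13 were higher and 10 lower and 372 passed, against 10, 9 and 78. The common coefficient of variation that edgeR estimated between X2 libraries was 0.0302 without the block and 0.0184 with it. Tests without pairs, the permutation tests included, may therefore show too few differences between the batches.

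Lower counts limit the statements on genes near 1 TPM, and the batch 2 table gives no value for genes it does not list. The 4 libraries of a group are technical, so spread between separately grown cultures was not measured. Strand assignment is unknown, so antisense partners such as Gm15564 are uncertain, as are genes with copies.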
